A study of Mus musculus with 6 samples.

Results

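The 29 genes described here encode the sensors that switch cholesterol synthesis on and off, the enzymes that build cholesterol from acetyl-CoA, and proteins that move or store it. They were taken as a fixed list of names, including known targets of the sterol-regulated transcription factor SREBP2, and matched to the symbols of a count table of 24063 genes. All 29 were found, and all 29 were among the 13572 genes with enough counts to be tested. RNA-seq had been carried out on liver tumors of male C57BL/6 mice, 3 wild type (WT, Nr2e3+/+) and 3 homozygous for loss of Nr2e3, a nuclear receptor (Nr2e3-/-). Both groups had received the liver carcinogen diethylnitrosamine (DEN), 25 mg per kg at 15 days of age, and tumors were taken at the 24-week time point, so that no untreated or tumor-free liver is among the samples. No Cre driver or tissue-specific promoter is named for the loss of Nr2e3. The methods, where they describe a short DEN experiment, give the WT mice as C57BL/6J from a supplier and the knockout line as made earlier, with no mention of littermates.

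Cells hold their cholesterol steady by feedback. SREBP2 is made as an endoplasmic reticulum membrane protein bound to its escort SCAP. When sterols are plentiful the INSIG proteins hold this complex back, and when sterols fall it travels to the Golgi, where proteases release the part that enters the nucleus and activates the genes of cholesterol synthesis and uptake. Liver is a main site of this synthesis, and much of the control lies in protein processing and turnover that transcript counts do not show.

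The promoters of 4 members are shown because they hold, or lack, the sequence that SREBP2 is known to bind. Letters in capitals mark 3 motifs searched on both strands: TCACNCCA, the core of a sterol regulatory element; CCAAT, which NF-Y binds; and GGGCGG, which Sp1 binds. Each runs 5′ to 3′ along the gene, from 250 bases before the RefSeq transcription start to 50 bases from it, in GRCm38.p6. They lie at chr8:64733529-64733828 (Msmo1, minus strand), chr13:119690101-119690400 (Hmgcs1, plus strand), chr15:82147019-82147318 (Srebf2, plus strand) and chrX:8193463-8193762 (Ebp, minus strand).
Msmo1: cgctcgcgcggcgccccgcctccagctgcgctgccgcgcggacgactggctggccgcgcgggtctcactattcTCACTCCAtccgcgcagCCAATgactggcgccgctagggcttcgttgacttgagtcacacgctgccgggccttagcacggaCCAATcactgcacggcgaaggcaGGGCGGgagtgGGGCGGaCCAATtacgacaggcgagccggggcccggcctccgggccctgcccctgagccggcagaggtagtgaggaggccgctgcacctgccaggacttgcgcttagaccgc
Hmgcs1: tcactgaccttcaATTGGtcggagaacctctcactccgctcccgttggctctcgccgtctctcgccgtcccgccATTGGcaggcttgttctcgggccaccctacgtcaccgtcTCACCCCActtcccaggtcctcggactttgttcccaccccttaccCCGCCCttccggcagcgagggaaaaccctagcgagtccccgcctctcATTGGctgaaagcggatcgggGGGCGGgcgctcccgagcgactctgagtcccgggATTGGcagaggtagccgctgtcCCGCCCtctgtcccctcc
Srebf2: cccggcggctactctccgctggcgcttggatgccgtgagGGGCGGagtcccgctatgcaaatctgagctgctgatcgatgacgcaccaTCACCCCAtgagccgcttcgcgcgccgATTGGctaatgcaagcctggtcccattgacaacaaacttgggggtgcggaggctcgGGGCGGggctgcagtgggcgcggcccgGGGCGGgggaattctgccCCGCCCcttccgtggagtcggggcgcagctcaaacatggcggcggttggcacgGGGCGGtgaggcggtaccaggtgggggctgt
Ebp: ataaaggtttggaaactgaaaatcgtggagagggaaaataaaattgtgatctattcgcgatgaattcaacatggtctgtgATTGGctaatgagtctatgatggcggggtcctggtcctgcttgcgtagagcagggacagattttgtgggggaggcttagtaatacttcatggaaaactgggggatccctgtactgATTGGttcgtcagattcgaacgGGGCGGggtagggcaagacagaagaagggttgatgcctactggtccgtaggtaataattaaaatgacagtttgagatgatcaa
The sterol element began 177 bases before the start in Msmo1, 137 in Hmgcs1 and 162 in Srebf2. Each of these promoters also held at least 1 CCAAT motif and at least 2 GGGCGG motifs. The Ebp promoter held 2 CCAAT motifs and 1 GGGCGG motif but no match to TCACNCCA in this window. RefSeq promoters were at hand for 23 of the 29 members. TCACNCCA was present in 3 of these 23 (13%) and in 4.65% of the 10177 tested genes with a promoter. CCAAT was present in 21 of 23 (91.3%) against 42.6%, and GGGCGG in 21 of 23 (91.3%) against 66.2%. The motifs do not overlap one another as printed, and a match describes the letters only.

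Depth ranged from 25250090 to 28690279 counts in the WT libraries and from 15376261 to 28336305 in the Nr2e3-/- libraries. Nr2e3 itself had 0 counts in every library of both genotypes, which allows at most 0.105 to 0.195 CPM (counts scaled to a library total of 1000000), so its counts could not serve as a check of genotype. The library of Nr2e3-/- replicate 1 stood apart. With all 6 libraries 13 genes differed between genotypes by edgeR's quasi-likelihood test at an adjusted p under 0.05, and without that library 3022 did, whereas leaving out any other library gave between 0 and 18. Values with and without it are therefore given for each member, and each named gene of the other sterol lists, whose edgeR call it changes. Of the cell markers named below, Hnf4a, Epcam and Spp1 were called higher by edgeR only without it (adjusted p = 0.0195, 0.00808 and 0.0266). Dcn and Col3a1 were called lower by edgeR only without that library (adjusted p = 0.0199 and 0.0440). With all 6 libraries, limma-voom called Hnf4a, Epcam, Dcn and Col3a1 in the same directions (adjusted p = 0.0261, 0.0390, 0.0453 and 0.0407). DESeq2 with all 6 called Epcam (adjusted p = 0.0489). Tat was called higher by DESeq2 (adjusted p = 0.00460) and limma-voom (adjusted p = 0.0221). The hepatocyte markers Alb, Ttr, Apoa1, Hnf4a, Cyp2e1 and Tat were all present, summing to 122647 to 153971 CPM in WT and 107066 to 127584 CPM in Nr2e3-/- tumors.

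As a group, the cholesterol genes met the thresholds for a genotype difference no more often than all genes did. They also varied more within each genotype, so low counts do not show that the genotypes were alike. Of the 29 members, 0 passed an adjusted p under 0.05 by edgeR with all 6 libraries, where 0.0958% of all genes did. At an unadjusted p under 0.05, 1 member (Ebp) was higher in Nr2e3-/- tumors (3.45% of members, against 11.8% of all genes) and 2 members (Acat2 and Soat2) were lower (6.9%, against 9.72%). The 3 libraries of one genotype lay wholly above the 3 of the other for Ebp among members higher in Nr2e3-/- tumors (3.45%, against 13.9% of all genes), and wholly below for Ggps1 and Soat2 (6.9%, against 12.9%). The shares of members were thus at or below the background on each of these counts. The fitted log2 fold change of Nr2e3-/- over WT was above 0 for 11 members and below 0 for 18, with a median of -0.08 beside 0.01 for all genes. Single members ranged from -0.67 (Soat2) to 0.39 (Ebp), with a median standard error of 0.21, beside 0.19 for all genes. In whole tumor RNA, fewer cells of a type and less RNA per cell cannot be told apart.

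Other tools and sample sets called a few members. DESeq2 called 2 members, Ebp and Soat2, at an adjusted p under 0.05 (6.9% of members, against 7.93% of the genes it tested). Limma-voom, which lowers the weight of libraries that vary more, called Insig1 and Soat2 (6.9%, against 17.4% of genes). Without Nr2e3-/- replicate 1, edgeR called Insig1, Npc1 and Sc5d, all lower in Nr2e3-/- tumors (10.3% of members, against 21.8% of genes). None of these shares exceeded the share of all genes called by the same test.

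**Figure D1:**
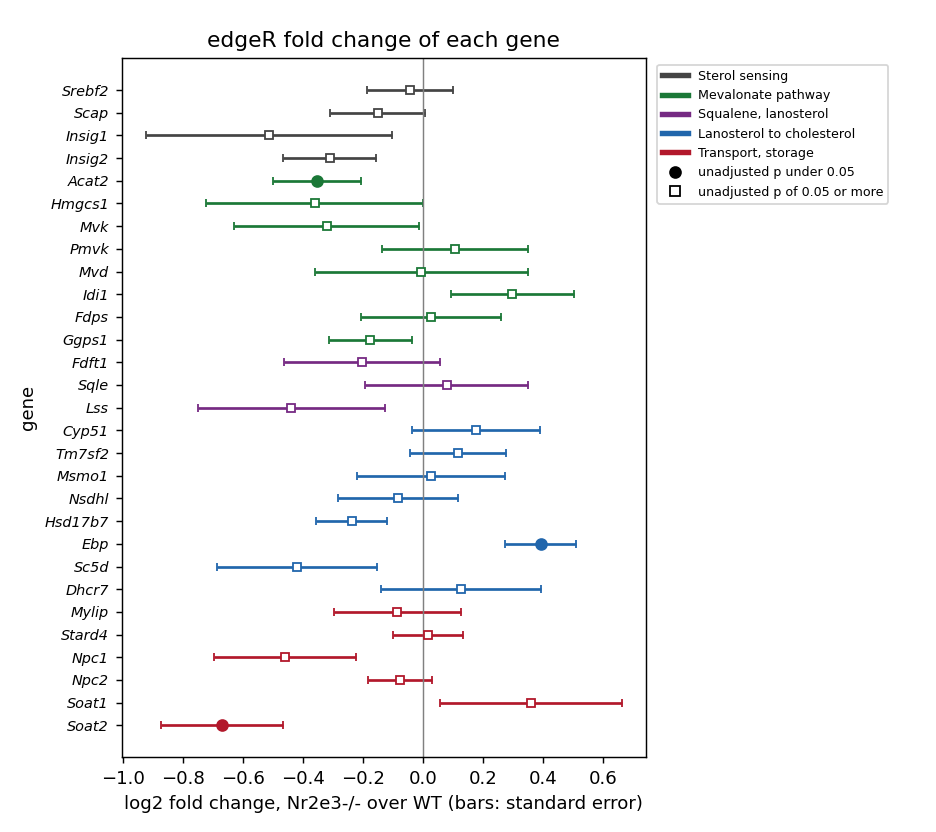
Log2 fold change of Nr2e3-/- over WT (x axis) for the 29 genes ordered by role, fitted with edgeR, with bars of 1 standard error, colors for roles and filled circles for an unadjusted p under 0.05. For 16 of the 29 genes the fold change is smaller than its standard error, and Ebp at 0.39 and Soat2 at -0.67 lie at the ends.

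Comparing levels between genes requires division by transcript length, and on the scale of CPM per kilobase of merged exons the pathway was expressed very unevenly. In WT tumors Hmgcs1 had the highest mean, 148 ± 56.8 CPM per kilobase (SD, n = 3), followed by Sc5d at 117 ± 18.0, Ebp at 92.3 ± 10.4, Insig1 at 90.1 ± 9.33 and Msmo1 at 85.5 ± 21.5. The last 3 were closer to one another than their spreads. At the other end stood Soat1 at 0.621 ± 0.131, Idi1 at 1.52 ± 0.193, Ggps1 at 1.69 ± 0.0889 and Mylip at 4.85 ± 1.07. Soat2, the cholesterol esterifying enzyme typical of hepatocytes, was at 26.9 ± 4.89 CPM per kilobase, far above its widely expressed relative Soat1.

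**Figure D2:**
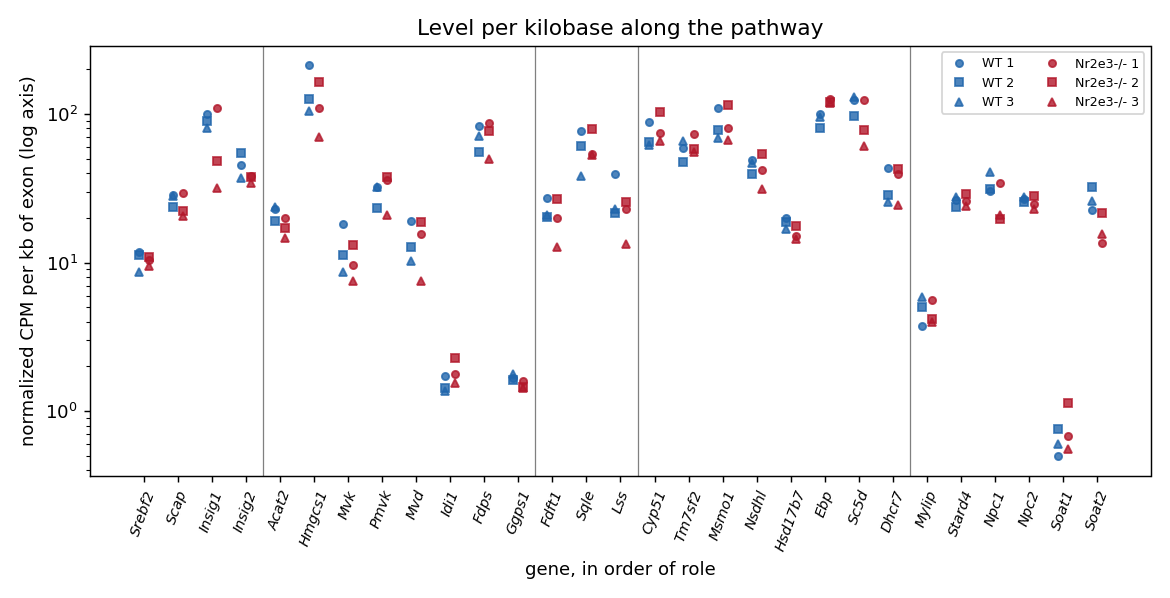
Level in each library as CPM per kilobase of merged exons on a log10 axis, for the 29 genes ordered by role. Points are single libraries, WT and Nr2e3-/- in separate colors. The spread between genes, from Soat1 (WT mean 0.621) to Hmgcs1 (WT mean 148), is much wider than that between genotypes.

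The sterol sensors come first. All 4 had fitted fold changes below 0, none with an unadjusted p under 0.05 and all with overlapping groups. Srebf2 encodes SREBP2 itself and spans chr15:82147181-82205379 on the plus strand. Its normalized level was 60.2, 57.3 and 43.7 CPM in WT replicates 1 to 3 and 53.0, 55.6 and 47.9 CPM in Nr2e3-/- replicates 1 to 3. The means, 53.7 ± 8.78 and 52.2 ± 3.90 CPM (SD), were closer than the spread within WT. The log2 fold change was -0.04 with a standard error of 0.14 (edgeR, p = 0.773, adjusted p = 0.877; exact permutation test, two-sided, p = 0.9). Scap, which encodes the escort protein, had means of 113 ± 10.6 and 102 ± 19.8 CPM and a log2 fold change of -0.15.

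Insig1 encodes the retention protein that is itself an SREBP target and so commonly rises when the pathway is active. It lies at chr5:28071363-28078662 on the plus strand. Its level was 269, 242 and 219 CPM in WT tumors and 295, 130 and 86.0 CPM in Nr2e3-/- tumors. The first Nr2e3-/- library thus lay above every WT library and the others lay below all of them. With all libraries the log2 fold change was -0.51 with a standard error of 0.41 (edgeR, p = 0.251, adjusted p = 0.484), and the exact permutation test, two-sided, gave p = 0.4, where 3 against 3 libraries cannot give less than 0.1. Leaving out Nr2e3-/- replicate 1 gave a log2 fold change of -1.16 (edgeR, adjusted p = 0.0123), and limma-voom, with that library kept at a low weight, gave -1.15 (adjusted p = 0.0384). Limma-voom also gave Nr2e3-/- replicate 2 a low weight (0.51) and replicate 3, the lowest library for Insig1, the largest weight (1.69). Without replicate 3 the log2 fold change of Insig1 was -0.19 (edgeR, adjusted p = 0.825). A call on Insig1 therefore rested on how single Nr2e3-/- libraries were treated.

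Insig2 is the second INSIG gene, known in liver for a transcript under insulin and bile acid control rather than SREBP control. It lies at chr1:121304353-121332589 on the minus strand. Its level was 134, 161 and 109 CPM in WT tumors and 112, 112 and 102 CPM in Nr2e3-/- tumors. The Nr2e3-/- libraries were tightly grouped at the lower end of the WT range, with which they overlapped. The log2 fold change was -0.31 with a standard error of 0.15 (edgeR, p = 0.0825, adjusted p = 0.284; exact permutation test, two-sided, p = 0.3). Across every alternative the log2 fold change of Insig2 stayed below 0 and no adjusted p passed 0.05.

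**Figure D3:**
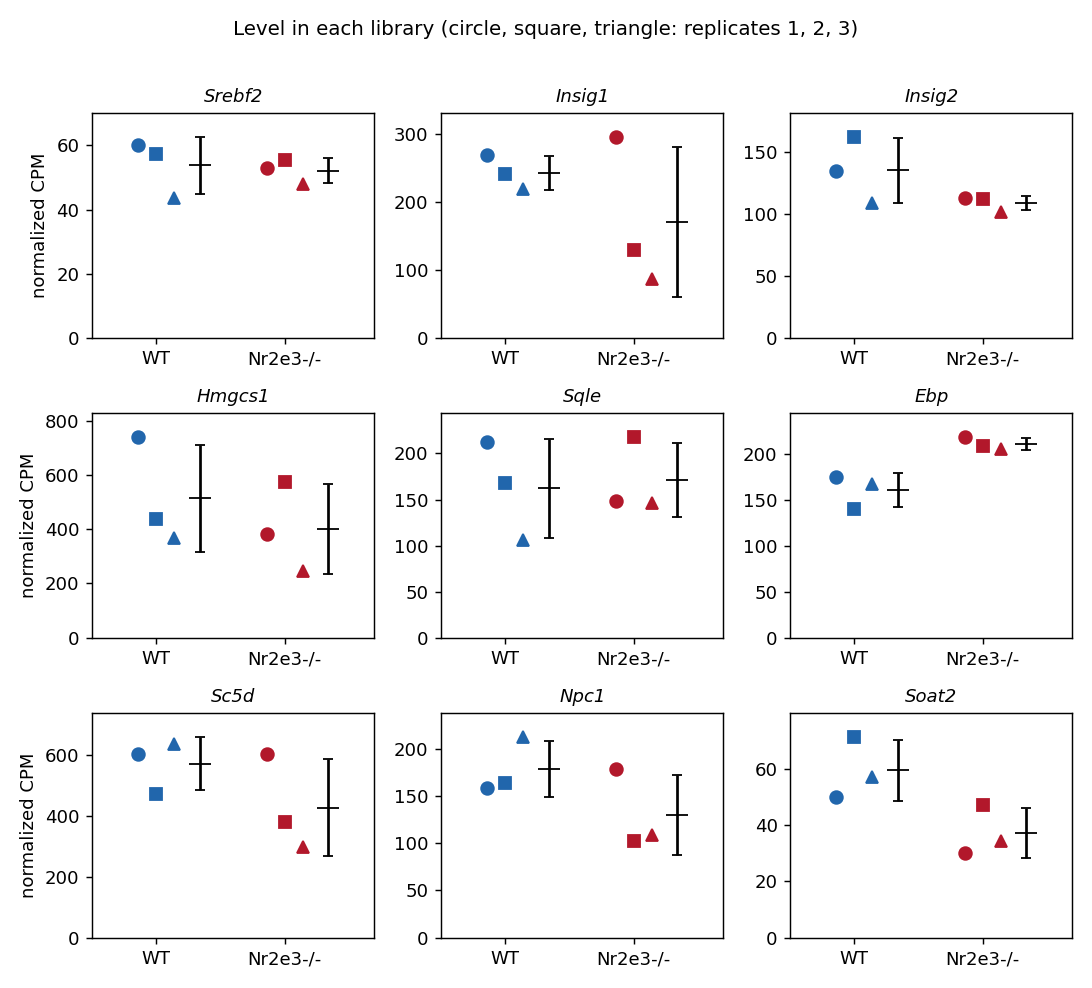
Normalized CPM (y axis, from 0) of 9 cholesterol genes in each of the 6 tumor libraries, with circle, square and triangle for replicates 1, 2 and 3 and a bar for the mean ± SD beside each group. Ebp and Soat2 are the panels in which the genotypes do not overlap, and in the Insig1 panel Nr2e3-/- replicate 1 (295 CPM) lies apart from the other 2 (130 and 86.0 CPM).

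The mevalonate pathway turns acetyl-CoA into farnesyl diphosphate. Of its 8 members 3 had fold changes above 0 and 5 below, with a median log2 fold change of -0.09. Hmgcs1 makes HMG-CoA and had the highest mean per kilobase in WT tumors, while in Nr2e3-/- tumors its mean of 115 ± 47.2 CPM per kilobase was below the 121 ± 3.74 of Ebp by less than its spread. It spans chr13:119690379-119708260 on the plus strand, and its promoter is printed above. Its level was 739, 438 and 366 CPM in WT tumors and 383, 573 and 246 CPM in Nr2e3-/- tumors. Each genotype held a 2-fold or wider range, and the groups overlapped. The log2 fold change was -0.36 with a standard error of 0.36 (edgeR, p = 0.351, adjusted p = 0.577; exact permutation test, two-sided, p = 0.5). Without WT replicate 1, the highest library, the log2 fold change of Hmgcs1 was -0.01.

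Acat2, the cytosolic thiolase that makes acetoacetyl-CoA, was at 57.5, 47.3 and 59.3 CPM in WT and 49.5, 42.5 and 36.6 CPM in Nr2e3-/- tumors. Its groups overlapped, and its log2 fold change of -0.35 had an unadjusted p of 0.0467 and an adjusted p of 0.226 by edgeR. The kinases Mvk and Pmvk add phosphate to mevalonate in turn, and their log2 fold changes were -0.32 and 0.11. Mvd, the decarboxylase that forms isopentenyl diphosphate, was at 24.6 ± 7.84 CPM in WT and 24.4 ± 10.04 CPM in Nr2e3-/- tumors, with a log2 fold change of -0.01. Idi1, the isomerase of that product, was low in both, at 4.596 ± 0.585 and 5.63 ± 1.13 CPM, with a log2 fold change of 0.30. Fdps makes farnesyl diphosphate, and its log2 fold change was 0.03. For Fdps 77.4% of exon bases are shared on the same strand with the gene model Gm43738, so reads there may have been split or dropped. Ggps1, which extends farnesyl to geranylgeranyl diphosphate, was at 7.33, 7.07 and 7.84 CPM in WT and 6.95, 6.42 and 6.33 CPM in Nr2e3-/- tumors. Its groups did not overlap, although the log2 fold change of Ggps1 was small at -0.18 with a standard error of 0.14 (edgeR, p = 0.244; exact permutation test, two-sided, p = 0.1).

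Squalene and lanosterol formation commits the pathway to sterols. Sqle, squalene epoxidase, is a rate-limiting oxygenase and lies at chr15:59315077-59331192 on the plus strand. Its level was 212, 168 and 106 CPM in WT tumors and 149, 218 and 147 CPM in Nr2e3-/- tumors, so that the WT libraries spanned nearly the whole range of the other group. The means were 162 ± 53.4 and 171 ± 40.3 CPM, and the log2 fold change was 0.08 with a standard error of 0.27 (edgeR, p = 0.783, adjusted p = 0.883; exact permutation test, two-sided, p = 0.9). Fdft1, squalene synthase, had a log2 fold change of -0.21 and means of 84.6 ± 13.97 and 73.3 ± 25.5 CPM. Of the exon bases of Fdft1, 20.9% overlap Ctsb on the opposite strand, and whether counting used strand was not stated. The same limit holds for Scap (18.6% of exon bases), Hmgcs1 (16.0%) and Idi1 (10.7%), and for smaller shares of Lss, Cyp51 and Npc1. Lss, which closes the sterol ring system, was at 131 ± 47.0 CPM in WT and 96.5 ± 30.2 CPM in Nr2e3-/- tumors, with a log2 fold change of -0.44. The groups overlapped for all 3 genes.

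The 8 enzymes that turn lanosterol into cholesterol included the member with the largest positive difference in the edgeR fit of all libraries. Ebp encodes the sterol isomerase that moves a ring double bond late in the pathway, and it lies at chrX:8185329-8193512 on the minus strand. Its level was 175, 140.5 and 167 CPM in WT tumors and 218, 208 and 206 CPM in Nr2e3-/- tumors. Every Nr2e3-/- library lay above every WT library, and the Nr2e3-/- libraries lay close together. The means of Ebp were 161 ± 18.1 and 211 ± 6.51 CPM, and the log2 fold change was 0.39 with a standard error of 0.12 (edgeR, p = 0.0119, adjusted p = 0.141; exact permutation test, two-sided, p = 0.1). DESeq2 gave Ebp an adjusted p of 0.0469. Leaving out 1 library at a time gave log2 fold changes from 0.30 to 0.46 for Ebp, and none of these fits passed an adjusted p of 0.05 by edgeR.

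Sc5d, which introduces a ring double bond downstream of Ebp, was at 604, 471 and 636 CPM in WT and 604, 379 and 297 CPM in Nr2e3-/- tumors. Nr2e3-/- replicate 1 matched the WT libraries while the other Nr2e3-/- libraries lay below all of them. The log2 fold change of Sc5d was -0.42 with all libraries (edgeR, adjusted p = 0.386) and -0.75 without that library (edgeR, adjusted p = 0.0336). Sc5d and Ebp catalyze neighboring steps, and their fitted values had opposite signs. The other 6 enzymes of this stretch had overlapping groups. Cyp51, the lanosterol demethylase, had a log2 fold change of 0.18 and means of 282 ± 57.4 and 318 ± 75.9 CPM. The reductase Tm7sf2 stood at 0.12, the methylsterol oxidase Msmo1 at 0.03, Nsdhl, which acts with it in demethylation, at -0.08, and the ketosteroid reductase Hsd17b7 at -0.24. Dhcr7, which makes cholesterol in the last step of one branch, was at 107 ± 30.9 CPM in WT and 117 ± 32.1 CPM in Nr2e3-/- tumors, with a log2 fold change of 0.13.

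Of the genes for transport and storage, Soat2 showed the largest difference of all members in the edgeR fit of all libraries. By limma-voom other members differed more, Insig1 the most (-1.15, against -0.71 for Soat2). Without Nr2e3-/- replicate 1 the edgeR fold change of Soat2 was -0.53, smaller than those of Insig1, Npc1 and Sc5d. It encodes the enzyme that esterifies cholesterol for lipoproteins and lipid droplets in hepatocytes, and lies at chr15:102150526-102163469 on the plus strand. Its level was 50.04, 71.3 and 57.1 CPM in WT tumors and 30.1, 47.3 and 34.4 CPM in Nr2e3-/- tumors. The groups did not overlap, but the gap between the lowest WT library and the highest Nr2e3-/- library was narrow. The means of Soat2 were 59.5 ± 10.8 and 37.3 ± 8.99 CPM, and the log2 fold change was -0.67 with a standard error of 0.20 (edgeR, p = 0.0126, adjusted p = 0.144; exact permutation test, two-sided, p = 0.1). The adjusted p of Soat2 was 0.0489 by DESeq2 and 0.0386 by limma-voom. Leaving out 1 library at a time gave log2 fold changes for Soat2 from -0.88 to -0.52, none passing an adjusted p of 0.05 by edgeR.

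Soat1, the widely expressed esterifying enzyme that is abundant in macrophages, was low and highest in Nr2e3-/- replicate 2. Its level was 4.19, 6.36 and 5.06 CPM in WT and 5.69, 9.58 and 4.65 CPM in Nr2e3-/- tumors, with a log2 fold change of 0.36. The macrophage markers Clec4f, Cd68, Csf1r, Marco and Vsig4 (5 of the 6 listed were in the table) summed to 182 to 240.2 CPM in WT tumors, and to 172, 391 and 210.2 CPM in Nr2e3-/- replicates 1 to 3. The sum, and each of the 5 markers, was thus highest in the same library as Soat1, and none was at 0 in every library. Their part in the Soat1 value was not tested. Soat1 had a log2 fold change of -0.01 once Nr2e3-/- replicate 2 was left out.

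Npc1 and Npc2 carry cholesterol out of lysosomes, one in the membrane and the other in the lumen. Npc1 was at 159, 164 and 212 CPM in WT and 178, 102 and 109 CPM in Nr2e3-/- tumors. As for Sc5d, Nr2e3-/- replicate 1 lay within the WT range and the others lay below it. The log2 fold change of Npc1 was -0.46 with all libraries (edgeR, adjusted p = 0.297) and -0.75 without replicate 1 (edgeR, adjusted p = 0.0193). Npc2 had means of 87.9 ± 3.11 and 83.3 ± 8.21 CPM and a log2 fold change of -0.08. Stard4, a cytosolic sterol carrier and SREBP2 target, was among the steadiest members, at 135 ± 10.9 and 136 ± 12.6 CPM, with a log2 fold change of 0.02. Mylip, a ubiquitin ligase that LXR induces to lower lipoprotein uptake, had a log2 fold change of -0.09.

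Differences among libraries of the same genotype were wide in this pathway. The highest library exceeded the lowest by a median of 1.38-fold over members in WT and 1.57-fold in Nr2e3-/- tumors, against 1.21-fold and 1.42-fold over all genes with counts. For the 19 synthesis enzymes, from Acat2 to Dhcr7 and with Ggps1, the medians were 1.38-fold and 1.71-fold. Nr2e3-/- replicate 3 held the lowest value of 14 of the 19 enzymes (73.7%) and of 18 of all 29 members (62.1%), against 19.9% of all genes, and it held the highest value of 0 of the 29. Nr2e3-/- replicate 2 exceeded replicate 3 for 19 of 19 enzymes, where it did so for 49.9% of all genes. The ratio had a median of 1.55 and ran from 1.012 for Ebp to 2.47 for Mvd. Among WT tumors, replicate 1 exceeded replicate 2 for every enzyme, including Ggps1 (7.33 against 7.07 CPM) and Sc5d (604 against 471 CPM). The share of all genes was not counted for that pair. WT replicate 1 exceeded replicate 3 for 14 of the 19 enzymes (50.3% of all genes), with a median ratio of 1.26.

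The same ordering appears on a log2 scale relative to the WT mean of each gene. The median over the 19 enzymes was 0.26, -0.15 and -0.13 in WT replicates 1 to 3 and -0.06, 0.23 and -0.46 in Nr2e3-/- replicates 1 to 3, while the median over all genes stayed between -0.02 and 0.01. Libraries high for the enzymes were thus found in both genotypes, and so were libraries below the WT mean. In Nr2e3-/- replicate 2, where most enzymes were high, 11 of the 29 members were below their WT mean. They were 5 of the 19 enzymes (Acat2, Ggps1, Lss, Hsd17b7 and Sc5d) and Scap, Insig1, Insig2, Mylip, Npc1 and Soat2, and ran down to -0.90 for Insig1. Ebp departed from it in another way, with values of 0.45, 0.38 and 0.36 in the 3 Nr2e3-/- libraries. The hepatocyte marker sum was lowest in Nr2e3-/- replicate 3, at 107066 CPM, of which Alb made up 84013 CPM. In that library Hnf4a was the highest of all 6, at 1398 CPM against 786 to 854 CPM in WT, and Tat was at 1736 CPM against 570.3 to 755 CPM in WT. Tat was higher still in Nr2e3-/- replicate 1, at 2451 CPM. Cyp2e1 in Nr2e3-/- replicate 3 was below every WT library, at 5297 CPM against 5465 to 7285 CPM. Ttr and Apoa1 were within the WT range there. The stellate cell and fibroblast markers Col1a1, Col3a1, Dcn, Lrat and Pdgfrb summed to 221 to 250.1 CPM in WT tumors and Nr2e3-/- replicate 1, and to 147 and 146 CPM in Nr2e3-/- replicates 2 and 3. Dcn, Col3a1 and Col1a1 were below every WT library in both of these, whereas Lrat was within the WT range and Pdgfrb, at 9.84 and 9.68 CPM, was just above it. The bile duct markers Krt19, Krt7, Epcam, Sox9 and Spp1 summed to 57.0 to 118 CPM in WT tumors and to 68.9, 428 and 185 CPM in Nr2e3-/- tumors. Spp1 alone gave 410.2 of the 428 CPM in replicate 2, where Epcam was also highest, at 10.95 CPM, but Krt7 was lowest of all 6 libraries at 0.520 CPM, Sox9 was below every WT library at 6.09 CPM and Krt19 was within the WT range at 0.668 CPM. The proliferation markers Mki67, Top2a, Ccnb1 and Cdk1 were each highest in the libraries in which the enzymes were highest, with sums of 18.2 CPM in WT replicate 1 and 28.1 CPM in Nr2e3-/- replicate 2, against 6.60 to 10.6 CPM in the other 4. The part of these cell markers in the enzyme levels was not tested.

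**Figure D4:**
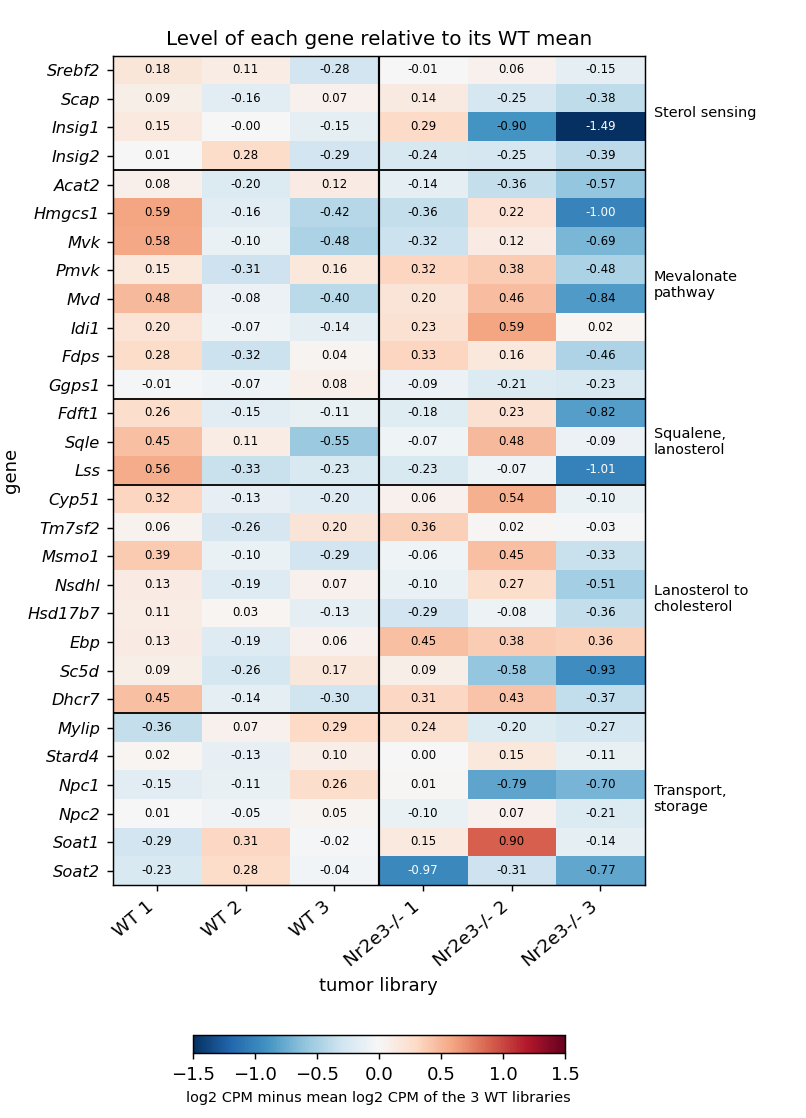
Log2 CPM of each of the 29 genes in each library minus the mean log2 CPM of the 3 WT libraries, with red for higher and blue for lower and the value written in each cell. The column of Nr2e3-/- replicate 3 is blue for most enzymes (median -0.46), the columns of WT replicate 1 and Nr2e3-/- replicate 2 are mostly red (medians 0.26 and 0.23), and the Ebp row is red in all 3 Nr2e3-/- columns.

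Genes that act on or beside the pathway were counted in the same fit. The lists, here and in the next paragraphs, were chosen with earlier results of these data known. A share above that of all genes therefore describes a list and does not test it. The genes named from these lists were picked for an unadjusted p under 0.05 and for groups that did not overlap. Their lack of overlap thus follows from the choice, and 26.8% of all genes had groups without overlap. None of the 50 genes in these lists passed an adjusted p of 0.05 by edgeR with all libraries, where 0.0958% of all genes did. Without Nr2e3-/- replicate 1, edgeR called 12 of the 50 (24%, against 21.8% of all genes), DESeq2 with all libraries called 9 (18%, against 7.93%) and limma-voom 12 (24%, against 17.4%). For comparison with the counts that follow, an unadjusted p under 0.05 was reached by 11.8% of all genes as higher and 9.72% as lower, 21.5% in all. Of 13 genes for SREBP processing, LXR and sterol-regulated degradation, 3 were higher and 2 lower at an unadjusted p under 0.05 (38.5% of the list in all), and the median log2 fold change was 0.05. Ube2g2, a ubiquitin-conjugating enzyme of endoplasmic reticulum degradation, was at 42.4, 36.0 and 31.1 CPM in WT and 63.5, 81.8 and 99.7 CPM in Nr2e3-/- tumors. No libraries overlapped, and the fitted difference for Ube2g2 was 1.16 on the log2 scale with a standard error of 0.19 (edgeR, adjusted p = 0.0930). Ube2g2 was called higher without Nr2e3-/- replicate 1, with a log2 fold change of 1.32 (edgeR, adjusted p = 0.00444), by DESeq2 (adjusted p = 2.3e-05), by limma-voom (adjusted p = 0.0126) and by edgeR with no filter on low counts (adjusted p = 0.0443). Rnf139, a sterol-sensing ubiquitin ligase, had a log2 fold change of 0.29 (edgeR, adjusted p = 0.161), also without overlap, and was called by limma-voom (adjusted p = 0.0377). Srebf1, which encodes the fatty acid counterpart of SREBP2, was at 383, 312 and 279 CPM in WT and 265, 113 and 65.3 CPM in Nr2e3-/- tumors. Its groups did not overlap, in contrast to those of Srebf2. The log2 fold change of Srebf1 was -1.14 (edgeR, adjusted p = 0.219) and -1.85 without Nr2e3-/- replicate 1 (edgeR, adjusted p = 0.00778), and limma-voom called it too (adjusted p = 0.0190). Of 10 fatty acid synthesis genes known as SREBP1 targets, 1 was higher and 0 lower at an unadjusted p under 0.05 (10% of the list), with a median log2 fold change of -0.08. That median turned with the library left out, from -0.30 without Nr2e3-/- replicate 1 to 0.12 without Nr2e3-/- replicate 3.

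Of 16 genes for sterol efflux, uptake and handling, 2 were higher and 6 lower at an unadjusted p under 0.05. That was 50% of the list, against 21.5% of all genes, and is no test of a list chosen with earlier results known. The median log2 fold change was -0.03. Abcg5 and Abcg8 form the transporter that secretes cholesterol into bile. Abcg5 was at 124, 142 and 144 CPM in WT and 89.2, 96.0 and 68.7 CPM in Nr2e3-/- tumors, with a log2 fold change of -0.69 (edgeR, adjusted p = 0.0997). Abcg8 was at 153, 152 and 191 CPM in WT and 109.6, 81.6 and 71.6 CPM in Nr2e3-/- tumors, with a log2 fold change of -0.91 (edgeR, adjusted p = 0.0936). Abca1, which loads cholesterol onto apolipoprotein A-I and like the other pair is a known LXR target, was at 339, 301 and 272 CPM in WT and 403, 685 and 594 CPM in Nr2e3-/- tumors, with a log2 fold change of 0.88 (edgeR, adjusted p = 0.109). The groups did not overlap for any of the 3, and Abca1 differed in the opposite direction. Without Nr2e3-/- replicate 1 edgeR called all 3, with log2 fold changes of -0.72 for Abcg5 (adjusted p = 0.0272), -1.10 for Abcg8 (adjusted p = 0.00590) and 1.08 for Abca1 (adjusted p = 0.00562). With all libraries, DESeq2 called Abcg5, Abcg8 and Abca1 (adjusted p = 0.00298, 0.000917 and 0.00298), as did limma-voom (adjusted p = 0.0162, 0.0134 and 0.0162). Lipa, the lysosomal acid lipase, was also lower without overlap, with a log2 fold change of -0.45 (edgeR, adjusted p = 0.136). Lipa was called without Nr2e3-/- replicate 1 (-0.56, edgeR, adjusted p = 0.0148), by DESeq2 (adjusted p = 0.0446) and by limma-voom (adjusted p = 0.0221). Npc1l1, the sterol uptake transporter, was at 10.6, 2.27 and 0.624 CPM in WT and at 0, 0.371 and 0.0541 CPM in Nr2e3-/- tumors, without overlap. Its fitted log2 fold change, which at such low counts depends on the prior count, was -4.66 (edgeR, adjusted p = 0.131) and -3.07 without WT replicate 1, the highest library, and DESeq2 called it (adjusted p = 0.0335).

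Of 11 genes of the isoprenoid branch, 4 were higher and 0 lower at an unadjusted p under 0.05. That was 36.4% of the list, against 11.8% of all genes as higher, and is likewise no test of the list. The median log2 fold change was 0.21. Nus1, a subunit of the enzyme that makes dolichol precursors, had a log2 fold change of 0.43 (edgeR, adjusted p = 0.103). The protease Rce1, which trims prenylated proteins, and Fntb, the beta subunit of farnesyltransferase, stood at 0.61 and 0.74 (edgeR, adjusted p = 0.117 and 0.130). The groups did not overlap for these 3 genes. Without Nr2e3-/- replicate 1 edgeR called Nus1, Rce1 and Fntb, with log2 fold changes of 0.47, 0.72 and 0.89 (adjusted p = 0.0195, 0.0155 and 0.0157). With all libraries they were called by DESeq2 (adjusted p = 0.00568, 0.0199 and 0.0378) and by limma-voom (adjusted p = 0.0225, 0.0225 and 0.0206).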

How the data were processed

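RNA was extracted from liver tumor tissue with the mirVana kit and sequenced as TruSeq libraries, single-end. The authors aligned reads to mm10 with TopHat and counted them per gene with FeatureCounts, and the deposited values are raw counts. TopHat and FeatureCounts versions and the strand setting are not given in the sources used here, and the submitters' notes also name Bowtie2 2.4.5 and SAMtools 1.14. The deposited normalized table and the authors' comparison table (log2 fold changes and p-values) were not used. Groups follow the genotype that each sample title gives.

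Differences were fitted by edgeR (4.0.16, under R 4.3.3) after filterByExpr (minimum count 10, minimum total 15) and TMM normalization. Its two-sided quasi-likelihood F test was used, p-values were adjusted by Benjamini-Hochberg over 13572 genes, and genes were called at 0.05. CPM values are TMM-normalized, and log2 CPM used a prior count of 2. Exact permutation tests covered the 20 arrangements of 6 libraries. DESeq2 1.42.0, limma-voom (limma 3.58.1) with sample quality weights, other normalizations and filters, a replicate block and leaving out each library were alternatives. The scripts were tested on simulated data.

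Exon lengths, overlaps and gene positions came from GENCODE vM21 (GRCm38) and promoters from RefSeq (GRCm38.p6), read in Python (3.11.15) with pandas (2.3.3) and plotted with matplotlib (3.10.9). Correlations of same-numbered libraries (-0.08, 0.221 and 0.02) lay within the range of those with different numbers (-0.265 to 0.225). Numbers were therefore not treated as pairs, although 3 libraries a group cannot exclude pairing. The members and gene lists were chosen with earlier results of these data known. Of the members, full values are given for Srebf2, Insig1, Insig2, Hmgcs1, Sqle and any with an unadjusted p under 0.05 and no overlap. From the other lists, genes meeting those 2 criteria are named, at most 5 a list. Values given in every library for Acat2, Ggps1, Sc5d, Npc1 and Soat1 were added after the values were seen. Each group holds 3 libraries, so p-values set the difference between genotypes against the spread between 3 tumors of a group.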

Additional observations from a re-analysis of the deposited data

How the results depend on the processing

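With 13 genes called by edgeR, RLE scaling gave 13, upper quartile scaling 8, no filter 70, a filter of at least 10 counts in every library 7, DESeq2 1093 and limma-voom 2360, and leaving out 1 library gave 0 to 3022, the highest without Nr2e3-/- replicate 1. At an unadjusted p under 0.05, 2916 genes became 4981 by limma-voom and 1693 to 5220 with 1 library left out. The 0 members called became 2 by DESeq2, 2 by limma-voom and 0 to 3 with 1 library left out, the 3 without Nr2e3-/- replicate 1. The 2 members lower at an unadjusted p under 0.05 became 4 with upper quartile scaling, 1 by DESeq2, 8 by limma-voom and 1 to 6 with 1 library left out. The 3 members without overlap became 4 to 8 with 1 library left out, since fewer libraries separate more easily. The median log2 fold change of the members ran from -0.16 to 0.02 with 1 library left out, above 0 without Nr2e3-/- replicate 3, and was -0.23 by limma-voom. With 1 library left out, the median of the fatty acid list ran from -0.30 to 0.12 and that of the efflux list from -0.31 to 0.034. Upper quartile scaling turned the median of the SREBP processing list to -0.029, beside -0.079 for all genes.

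The replicate block gave 0 genes called, 2438 at an unadjusted p under 0.05, 1 member higher and 1 lower. The labels do not say what a shared number marks, and the same-number correlations of -0.08, 0.22 and 0.02 do not settle whether the libraries are paired.

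Of 377 fits of single members under the alternatives, 39 turned the direction, in 15 members, none of them called, and 7 newly passed an adjusted p of 0.05. Upper quartile scaling turned Fdps to -0.050, Sqle to -0.011, Msmo1 to -0.059 and Stard4 to -0.068. That scaling moved the median over all genes from 0.0073 to -0.079, and each of these values lay above it. Limma-voom turned Pmvk to -0.18, Fdps to -0.23, Sqle to -0.022, Msmo1 to -0.17, Dhcr7 to -0.15 and Stard4 to -0.035. The filter of at least 10 counts turned Stard4 to -0.0015. With 1 library left out, the log2 fold change ran from -0.031 to 0.36 for Cyp51, -0.027 to 0.38 for Dhcr7, -0.48 to 0.032 for Fdft1, -0.13 to 0.23 for Fdps, -0.22 to 0.25 for Msmo1, -0.28 to 0.29 for Mvd, -0.56 to 0.024 for Mvk, -0.25 to 0.067 for Mylip, -0.29 to 0.094 for Nsdhl, -0.040 to 0.34 for Pmvk, -0.011 to 0.56 for Soat1, -0.15 to 0.32 for Sqle, -0.17 to 0.048 for Srebf2, -0.054 to 0.080 for Stard4 and -0.0071 to 0.22 for Tm7sf2. The cause of these changes was not tested. The median standard error over members was 0.21 on the log2 scale with 3 libraries a group, and a missed threshold does not show that the genotypes were alike.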
